A study of Mus musculus with 12 samples.

Results

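The data describe 10 genes of the circadian clock in mouse liver: Arntl, Clock, Per1, Per2, Per3, Cry1, Nr1d1, Nr1d2, Dbp and Tef. They were taken by symbol from the array annotation, with the brightest probe set per gene. Each of the 10 had 1 probe set, out of 30142 genes with a named probe set, and all 10 had a mean above the 4.55 used as a filter, as did 18725 genes in all. The study measured liver RNA of C57BL/6 males aged 12 weeks on 12 arrays, 4 per group. The F2 group were grandsons of obese Avy/a females, the F3 group were great-grandsons of such females, and the control group were males with lean control parents. Avy/a females carry the viable yellow allele of agouti, which makes them obese. The labels give neither the generation of each control male nor the hour at which tissue was collected. They also do not say whether the 4 samples of a group are 4 animals. A p-value here therefore sets a difference against the spread among the samples hybridized, some of which may be technical.

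The mammalian clock is a transcriptional feedback loop. The positive limb, BMAL1 (encoded by Arntl) and CLOCK, binds E-box sequences and activates the Per and Cry genes, whose products then repress that activation and form the negative limb. BMAL1 and CLOCK also activate Nr1d1 and Nr1d2, which encode the nuclear receptors REV-ERB alpha and REV-ERB beta and repress Arntl, and the output factors DBP and TEF, which bind D-box sequences. In mouse liver these transcripts cycle over the day, Arntl in near antiphase to Dbp and Nr1d1, so the hour of collection sets much of their level.

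Start-region sequences are shown for the members that held one of the motifs searched. A match is one of letters only, and binding was not measured. RefSeq start regions (build GRCm38.p6) matched 9 of the 10 symbols, in 14 windows of the 250 bases before an annotated start, Per2 being the one without. The motifs were the E-box CACGTG, its variant CACGTT or AACGTG, the D-box TTATGTAA, TTACATAA or TTACGTAA, and the ROR element TAGGTCA or TGACCTA, through which REV-ERB proteins and their ROR counterparts act. These letters cover both strands, and no 2 matches overlapped. In the sequences below, given 5′ to 3′ on the gene's strand, capitals mark a match.
Per3: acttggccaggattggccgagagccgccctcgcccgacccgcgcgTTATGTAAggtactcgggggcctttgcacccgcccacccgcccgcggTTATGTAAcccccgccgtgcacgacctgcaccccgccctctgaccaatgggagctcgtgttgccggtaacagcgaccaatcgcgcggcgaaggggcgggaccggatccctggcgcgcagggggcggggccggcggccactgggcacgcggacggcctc
Tef, first start: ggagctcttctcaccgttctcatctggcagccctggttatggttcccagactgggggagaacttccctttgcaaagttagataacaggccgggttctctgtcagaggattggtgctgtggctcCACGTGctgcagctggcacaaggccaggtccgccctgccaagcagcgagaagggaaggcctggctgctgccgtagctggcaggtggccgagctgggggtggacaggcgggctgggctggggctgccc
Tef, second start: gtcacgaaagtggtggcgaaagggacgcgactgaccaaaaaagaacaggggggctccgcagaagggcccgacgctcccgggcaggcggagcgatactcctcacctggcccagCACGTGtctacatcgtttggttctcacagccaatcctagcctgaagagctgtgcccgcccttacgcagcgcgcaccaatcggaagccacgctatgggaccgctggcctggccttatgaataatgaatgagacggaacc
Cry1: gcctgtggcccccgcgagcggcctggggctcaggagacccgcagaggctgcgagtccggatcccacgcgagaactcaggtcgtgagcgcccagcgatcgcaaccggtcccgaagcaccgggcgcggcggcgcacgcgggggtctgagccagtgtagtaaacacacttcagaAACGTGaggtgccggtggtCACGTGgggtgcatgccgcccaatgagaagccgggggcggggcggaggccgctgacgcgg
Per1: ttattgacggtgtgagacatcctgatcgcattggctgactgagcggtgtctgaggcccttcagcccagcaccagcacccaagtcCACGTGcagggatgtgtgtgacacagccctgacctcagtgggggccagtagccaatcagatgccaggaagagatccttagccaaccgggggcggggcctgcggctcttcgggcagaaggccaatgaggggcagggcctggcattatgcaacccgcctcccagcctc
Nr1d1: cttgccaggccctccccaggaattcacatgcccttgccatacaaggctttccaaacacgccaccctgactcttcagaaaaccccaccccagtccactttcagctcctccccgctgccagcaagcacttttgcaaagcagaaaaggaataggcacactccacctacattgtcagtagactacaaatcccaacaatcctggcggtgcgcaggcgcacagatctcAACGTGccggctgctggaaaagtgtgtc
The Per3 window (minus strand, chr4:151044666-151044915) held the D-box TTATGTAA 2 times, beginning 205 and 158 bases before the start. Both Tef windows (plus strand, chr15:81802423-81802672 and chr15:81811164-81811413) held 1 E-box, 127 and 138 bases before their starts. Cry1 (minus strand, chr10:85185055-85185304) held an E-box 60 bases and the variant AACGTG 79 bases before its start. Per1 (plus strand, chr11:69098699-69098948) held an E-box 166 bases before the start shown and none in its other window, and Nr1d1 (minus strand, chr11:98775378-98775627) held AACGTG 28 bases before its start. An E-box was thus found in 3 of 9 members, against 6.86% of 27025 genes, the variant in 2 of 9 against 4.5%, the D-box in 1 of 9 against 1.1%, and the ROR element in 0 of 9 against 2.55%. The windows of Dbp, Nr1d2, Arntl and Clock held none of these letters, which says nothing of sites elsewhere in those genes.

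Values are the authors' log2 expression values, in which a difference of 1 is a doubling. They rank arrays for 1 gene and are not compared between genes. Medians of all probe sets lay between 4.49 and 4.597 on the 12 arrays. The arrays fell into 2 sets by their level of 955 small nucleolar RNA genes: F2 replicates 1 and 4, F3 replicates 1, 2 and 3 and control replicates 2 and 4 were higher than the other 5. The labels name nothing technical that divides them so. Of the 30 differences between groups given below (10 genes in 3 comparisons), 8 changed sign within the higher set alone and 18 within the lower set, which holds 1 F3 array. Set values are given below for the genes with the largest differences. Of the markers fixed for hepatocytes, 7 of 8 were measured and all 7 passed the filter, with a mean between 12.22 and 12.38 in F2, 12.29 and 12.36 in F3, and 12.27 and 12.36 in control. Pancreas, adipose and muscle markers averaged at most 5.79 on any array.

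The positive limb did not differ between the groups beyond the spread of the arrays. Arntl, the gene of BMAL1, had 4.94, 5.12, 5.03 and 5.04 in F2 replicates 1 to 4, 4.80, 4.89, 5.17 and 5.34 in F3 replicates 1 to 4, and 5.02, 5.12, 5.09 and 5.11 in control replicates 1 to 4. The F3 arrays held both the lowest and the highest value of all 12, and the groups overlapped. Arntl was dim on every array: its mean of 5.05 lay above 68.7% of 5222 negative control probe sets. How much of its signal is background is not known. Clock, the DNA-binding partner of BMAL1, had 8.44, 8.45, 8.30 and 8.49 in F2, 8.28, 8.22, 8.41 and 8.84 in F3, and 8.20, 8.72, 7.96 and 8.30 in control. F3 replicate 4 and control replicate 2 stood highest and control replicate 3 lowest, and the groups overlapped. The log2 difference from control was −0.05 (SE 0.10) for Arntl and 0.12 (SE 0.16) for Clock in F2, and −0.04 (SE 0.10) for Arntl and 0.14 (SE 0.16) for Clock in F3. The Clock values moved with single arrays. F2 minus control was 0.0125 without control replicate 3 and 0.27 without control replicate 2. F3 minus control was 0.011 when F3 replicate 4 was left out, and leaving out control replicate 3 gave 0.031 and control replicate 2 gave 0.29. Within the array sets F3 minus control for Clock was −0.21 in the higher and 0.76 in the lower set, and F2 minus control was −0.05 in the higher and 0.30 in the lower set.

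Among the repressors, Per1 had the largest group difference of the 10 genes, and it did not pass the test. Per1, whose product PERIOD1 binds CRY proteins and which also responds quickly to light and hormonal signals, had 8.44, 7.997, 8.61 and 7.95 in F2, 7.99, 7.64, 7.72 and 8.13 in F3, and 8.25, 8.41, 8.36 and 7.69 in control. The F3 arrays lay low as a group, but F2 replicates 2 and 4 and control replicate 4 lay among them. Per1 averaged 7.87 ± 0.23 in F3 and 8.25 ± 0.33 in F2 (SD, n = 4 each), a log2 difference of −0.38 (95% interval −0.78 to 0.03, limma adjusted p = 0.9999). An exact two-sided permutation test of the 8 arrays gave p = 0.143, where 0.0286 is the smallest that 4 against 4 allow. From control, where it averaged 8.18 ± 0.33 (SD, n = 4), F3 differed by −0.31 (SE 0.19) and F2 by 0.07 (SE 0.19). With array weights F3 minus control was −0.10 and F2 minus control 0.37, so which of the groups lay further from control depended on the weighting, while F3 minus F2 was −0.47. Within the higher array set F3 minus F2 was −0.41. Within the lower set it was −0.17, F3 having a single array there.

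Per2, the second PERIOD gene, split the F2 group, with 8.45 and 8.32 in replicates 1 and 3 and 7.55 and 7.57 in replicates 2 and 4. It had 7.99, 7.59, 8.07 and 8.15 in F3, and 8.22, 7.73, 8.16 and 7.97 in control. The F2 arrays thus held both ends of the range over all 12. Per3, the third PERIOD gene, had 7.29, 6.95, 7.32 and 7.28 in F2, 7.55, 7.41, 7.11 and 7.13 in F3, and 7.17, 6.97, 7.23 and 7.18 in control. F2 replicate 2 and control replicate 2 were the low arrays and F3 replicates 1 and 2 the high ones. Cry1, which encodes the repressor CRYPTOCHROME1, had 6.37, 5.82, 5.95 and 5.82 in F2, 6.04, 5.99, 6.05 and 6.07 in F3, and 6.13, 5.73, 6.22 and 5.97 in control. The F3 arrays were close together, with an SD of 0.034 against 0.26 in F2 and 0.22 in control, a contrast that was not tested. Differences from control were −0.05 (SE 0.21) for Per2, 0.07 (SE 0.11) for Per3 and −0.02 (SE 0.13) for Cry1 in F2. In F3 they were −0.07 (SE 0.21) for Per2, 0.16 (SE 0.11) for Per3 and 0.02 (SE 0.13) for Cry1. For Per3 that difference was 0.28 within the higher array set and −0.07 within the lower.

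The REV-ERB genes differed in how much they moved between arrays. Nr1d1 had 9.32, 9.74, 10.10 and 10.02 in F2, 9.60, 9.43, 9.54 and 10.04 in F3, and 9.65, 9.94, 9.93 and 9.66 in control. F2 again spanned the whole range, from replicate 1 as the lowest to replicate 3 as the highest array. Nr1d2 had 9.02, 8.90, 9.10 and 9.08 in F2, 9.08, 9.09, 8.88 and 9.01 in F3, and 9.12, 8.95, 9.02 and 8.96 in control. All 12 arrays lay between 8.88 and 9.12 for Nr1d2, and between 9.32 and 10.10 for Nr1d1. In F2 the difference from control was −0.0017 (SE 0.17) for Nr1d1 and 0.01 (SE 0.069) for Nr1d2, and in F3 it was −0.14 (SE 0.17) for Nr1d1 and 0.0015 (SE 0.069) for Nr1d2. F3 minus control for Nr1d1 was −0.28 within the higher array set and 0.25 within the lower.

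The output factors Dbp and Tef, which carry the rhythm on to genes of detoxification and metabolism, were close to each other in their pattern over arrays. Dbp had 9.34, 9.14, 9.60 and 9.33 in F2, 9.57, 9.47, 9.17 and 9.33 in F3, and 9.33, 9.14, 9.38 and 9.28 in control. Tef had 7.66, 7.30, 7.77 and 7.51 in F2, 7.74, 7.55, 7.31 and 7.59 in F3, and 7.51, 7.45, 7.65 and 7.45 in control. For both genes F2 replicate 3 and F3 replicate 1 were the 2 highest arrays, and F2 replicate 2, F3 replicate 3 and control replicate 2 the 3 lowest. The groups overlapped for both. The difference from control was 0.07 (SE 0.11) for Dbp and 0.04 (SE 0.11) for Tef in F2, and 0.10 (SE 0.11) for Dbp and 0.03 (SE 0.11) for Tef in F3.

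**Figure D1:**
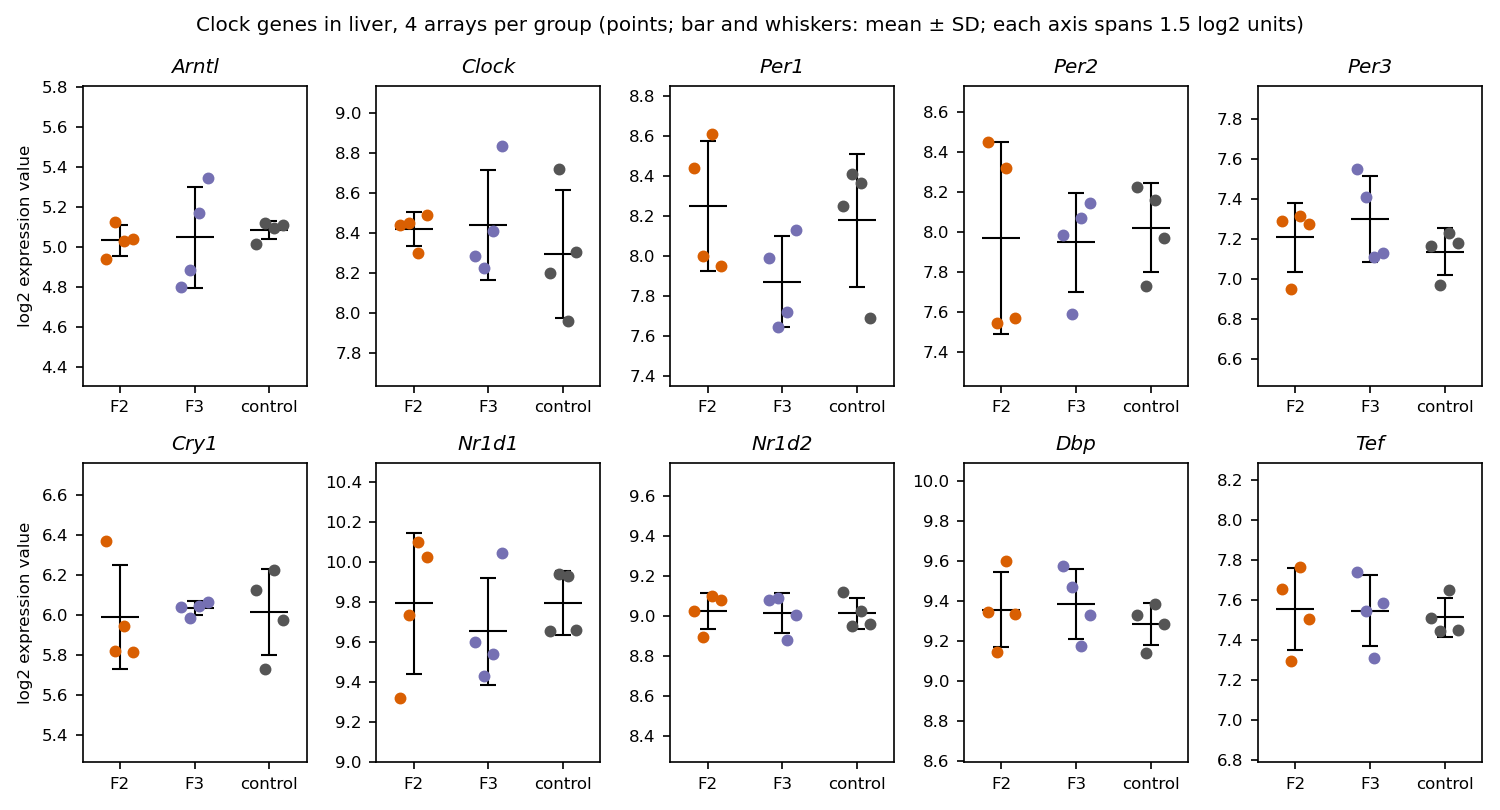
Log2 expression value of each of the 10 clock genes (vertical axis, 1.5 log2 units in every panel) in F2, F3 and control livers; points are arrays, the bar and whiskers are the mean ± SD of 4 arrays. The groups overlap for every gene, and Per2 in F2 falls into a high and a low pair of arrays, 8.45 and 8.32 against 7.55 and 7.57.

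None of the 10 genes passed in any comparison (limma, Benjamini-Hochberg over 18725 genes, adjusted p of at least 0.9998 for every member), where 0.0% of all genes tested were called in each. An unadjusted p under 0.05 was reached by 0 of 10 members in each comparison, against 0.919% of all genes (172 genes) for F2 minus control, 2.93% (548 genes) for F3 minus control and 2.37% (443 genes) for F3 minus F2. Among all genes these were 0.342% higher and 0.577% lower in F2 than in control, 1.64% higher and 1.28% lower in F3 than in control, and 1.59% higher and 0.774% lower in F3 than in F2. The arrays of the groups compared overlapped for 10 of 10 members in each, against non-overlapping arrays in 0.705%, 1.63% and 2.46% of all genes. Against control, 6 members were nominally higher and 4 lower in F2 (median 0.03, all genes −0.01), and 6 higher and 4 lower in F3 (median 0.01, all genes −0.01). These 2 comparisons share the control arrays. For F3 minus F2 the split was 5 and 5 (median 0.0036, all genes 0.0025).

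The intervals show what the design could have missed. Their half-width on the log2 scale lay between 0.15 for Nr1d2 and 0.45 for Per2. The outermost bound of any member was 1.42-fold for F2 against control, 1.64-fold for F3 against control and 1.72-fold for F3 against F2, the last of these for lower Per1. A test that misses the threshold with such intervals does not show that the groups were alike.

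**Figure D2:**
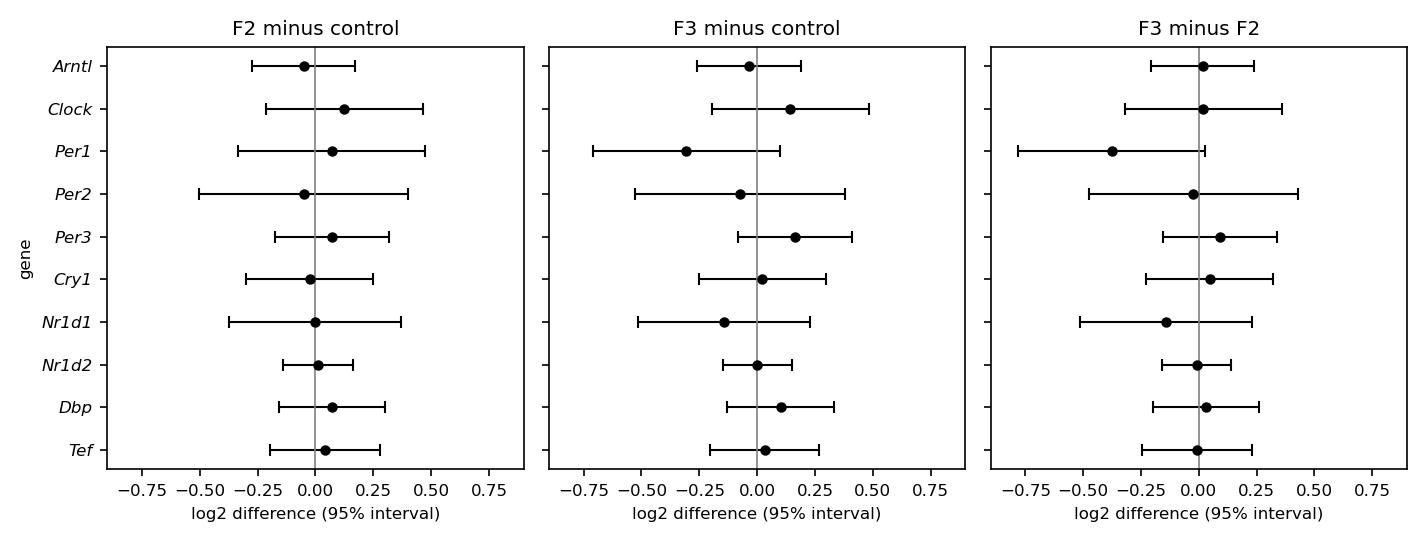
Log2 difference of each clock gene with its 95% interval from limma (horizontal axis) for F2 minus control, F3 minus control and F3 minus F2, 4 arrays per group. Every interval includes 0, the point furthest from 0 is Per1 in F3 minus F2 at −0.38, and the narrowest intervals are those of Nr1d2.

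The clock genes varied between arrays more than most genes, and little of that variation lay between the groups. For 9 of 10 members the SD over arrays exceeded 0.124, the median for the genes tested, with Nr1d2 as the exception at 0.081. Per1 with an SD of 0.32, Per2 with 0.31, Nr1d1 with 0.26 and Clock with 0.23 exceeded 95.1%, 94.5%, 91.6% and 89.9% of genes tested. The share of a gene's variation that lay between the 3 group means was 28.4% for Per1 and 16.5% for Per3. It was below the all-gene median of 9.61% for the other 8, down to 0.39% for Nr1d2.

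The positive limb was set against the 8 other members, which are the negative limb, the REV-ERB genes and the output factors. The score was the mean of Arntl and Clock minus the mean of those 8, expressed relative to its mean over the 12 arrays. This limb difference was −0.15, 0.26, −0.28 and 0.10 in F2, −0.26, −0.07, 0.21 and 0.31 in F3, and −0.17, 0.28, −0.32 and 0.08 in control. Each group thus held arrays with a high and arrays with a low limb difference, and the groups overlapped over nearly the whole range. The group means were −0.02 ± 0.24 in F2, 0.05 ± 0.26 in F3 and −0.03 ± 0.27 in control (SD, n = 4 each), so F2 differed from control by 0.01, F3 from control by 0.08 and F3 from F2 by 0.07, all less than the spread within a group. Their sign is not settled, since 1 array left out gave −0.0835 to 0.1166 for F2 minus control, −0.0173 to 0.1828 for F3 minus control and −0.0221 to 0.168 for F3 minus F2. The sign turned without F2 replicate 2 or 4 or control replicate 1 or 3 for F2 minus control, without F3 replicate 4 or control replicate 3 for F3 minus control, and without F3 replicate 4 or F2 replicate 3 for F3 minus F2. Within the higher array set F2 minus control was −0.21 and F3 minus control −0.22, and within the lower set they were 0.23 and 0.55, with 1 F3 array. F3 minus F2 was −0.0126 in the higher and 0.32 in the lower set.

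By role, the PER and CRY mean was 7.35 ± 0.28 in F2, 7.29 ± 0.11 in F3 and 7.34 ± 0.15 in control. The mean of the 2 REV-ERB genes was 9.41 ± 0.20 in F2, 9.34 ± 0.14 in F3 and 9.41 ± 0.07 in control, and that of Dbp and Tef 8.46 ± 0.19 in F2, 8.47 ± 0.17 in F3 and 8.40 ± 0.10 in control (SD, n = 4 each). No role stood apart in any group by more than its SD.

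**Figure D3:**
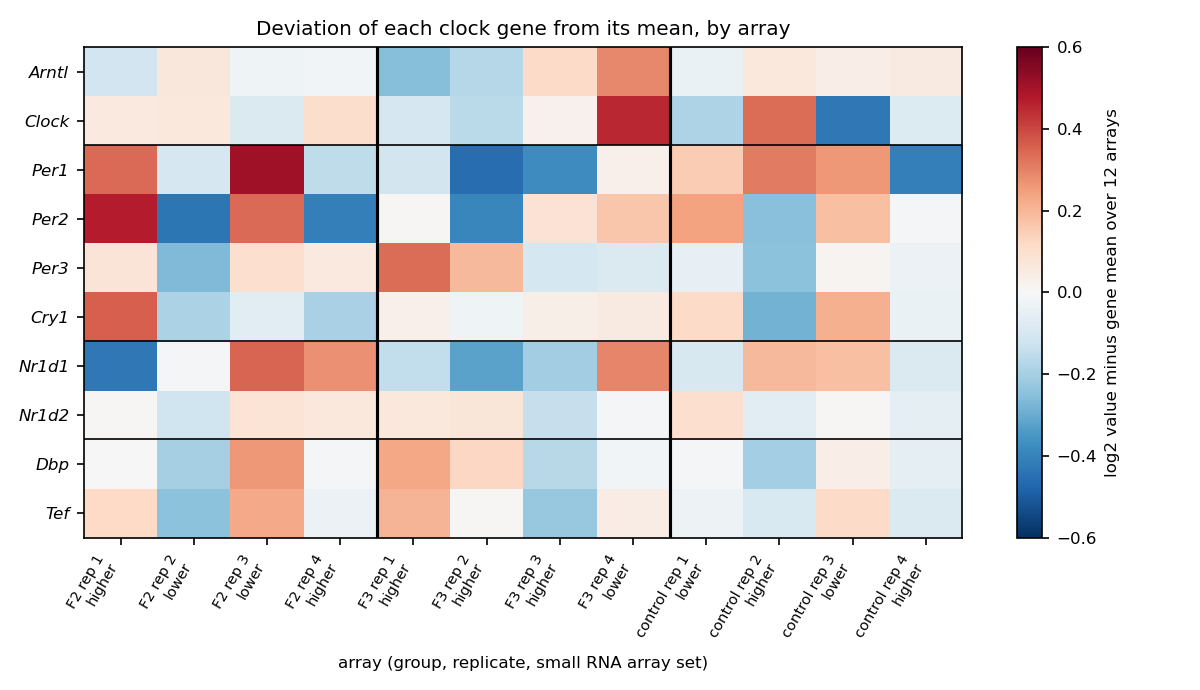
Log2 value of each clock gene minus its mean over the 12 arrays (colour), genes down the page by role and arrays across by group, replicate and small RNA array set. High and low arrays occur within each group, and the rows of Dbp, Tef, Per3 and Nr1d2 share their low values in F2 replicate 2 and F3 replicate 3.

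Over the 12 arrays some of the members varied together: Per3, Nr1d2, Dbp and Tef as a block, and Per2 with Cry1. Clock, Per1 and Nr1d1 had 0 passing pairs. For the 45 pairs of members, Pearson's r was computed and tested by permutation (100000 resamples, two-sided, adjusted over the 45 pairs), and 8 pairs passed. The count was 2 to 8 with 1 array left out, and 2 without each of F2 replicates 1 and 2, F3 replicate 3 and control replicate 4. Of the 8 pairs, 6 joined Per3, Nr1d2, Dbp and Tef, that is every pair among those 4 genes. Per3 and Dbp had r = 0.889 (Spearman's rho 0.93, permutation p = 2e-04, adjusted p = 0.00562), and Dbp and Tef had r = 0.886 (rho 0.888, permutation p = 0.00025, adjusted p = 0.00562). Nr1d2 and Dbp had r = 0.805 (rho 0.797, adjusted permutation p = 0.025). The 3 partners of Dbp are thus a PERIOD gene, an output factor and a REV-ERB gene.

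The remaining pairs of that block were weaker. Per3 and Tef had r = 0.752 (rho 0.797, permutation p = 0.00486, adjusted p = 0.0386), Nr1d2 and Tef r = 0.744 (rho 0.685, permutation p = 0.006, adjusted p = 0.0386), and Per3 and Nr1d2 r = 0.717 (rho 0.72, permutation p = 0.00844, adjusted p = 0.0475). Per2 and Cry1 had r = 0.777 (rho 0.727, permutation p = 0.00258, adjusted p = 0.029). F2 replicate 1 was the highest array for both genes, and F2 replicates 2 and 4 and control replicate 2 were among the lowest. The eighth pair crossed the limbs: Arntl and Per3 had r = −0.757 (rho −0.853, permutation p = 0.00556, adjusted p = 0.0386). The scaling of the arrays bore on several of the 8. After quantile normalization Arntl with Per3 (r = −0.716), Nr1d2 with Tef (r = 0.689) and Per3 with Nr1d2 (r = 0.421) no longer passed, the last with the largest loss. After centring on array medians Arntl with Per3 (r = −0.62) and Per3 with Nr1d2 (r = 0.652) no longer passed. By Spearman's rho Per2 with Cry1, Per3 with Nr1d2 and Nr1d2 with Tef did not pass (adjusted permutation p = 0.0519, 0.0539 and 0.0735).

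Few genes of the transcriptome followed Dbp, Per2 or Arntl as closely as these members did. An r of at least 0.7 with Dbp was reached by 3 of the 9 other members and by 1.08% of 18724 genes, with Per3 in place 8, Tef in place 9 and Nr1d2 in place 48 from the top. Per3, Tef and Nr1d2 likewise had 3 of 9 members at 0.7 or more, against 0.993% of genes for Per3, 1.08% for Tef and 1.48% for Nr1d2. Per2 and Cry1 had 1 of 9, each other, against 0.764% of genes for Per2 and 0.235% for Cry1, and Cry1 held place 51 for Per2. An r of −0.7 or lower joined Arntl with 1 of 9 members, Per3, against 0.614% of genes for Arntl and 1.19% for Per3.

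The pairs were not equally secure. Without the 2 arrays farthest from the median of the first gene of each pair, r was 0.825 for Per3 and Dbp, 0.785 for Dbp and Tef, 0.703 for Nr1d2 and Dbp, 0.684 for Per2 and Cry1 and −0.775 for Arntl and Per3. It was 0.563 for Per3 and Tef, 0.655 for Per3 and Nr1d2 and 0.442 for Nr1d2 and Tef. With 10 arrays 0 of the 45 pairs passed (smallest adjusted permutation p = 0.135). Fewer arrays and a narrower range of the first gene come with that choice, and all 8 pairs kept their sign. Dbp with Per3 and Dbp with Tef passed without each array in turn, 12 of 12 times, and Nr1d2 with Dbp 8 times. Per2 with Cry1 passed 6 times, Per3 with Tef 5 times, Arntl with Per3 4 times, Nr1d2 with Tef 4 times and Per3 with Nr1d2 1 time. With the replicate number as a block 1 pair was left, so Dbp with Per3 and Dbp with Tef did not both pass there. With group means removed, r was 0.887 for Per3 and Dbp, 0.901 for Dbp and Tef and 0.79 for Per2 and Cry1, the 3 pairs that still passed. The other 5 did not pass although r was no smaller in size: 0.837 for Nr1d2 and Dbp, 0.791 for Per3 and Tef, 0.785 for Per3 and Nr1d2, 0.745 for Nr1d2 and Tef and −0.794 for Arntl and Per3 (adjusted permutation p between 0.0511 and 0.11). With the means of the array sets removed, Dbp had r = 0.96 with Per3, 0.885 with Tef and 0.803 with Nr1d2. Within the higher set of 7 arrays Dbp had r = 0.987 with Per3 (adjusted permutation p = 0.009), 0.834 with Tef and 0.84 with Nr1d2, of which the first passed. The lower set, with 5 arrays, is too small for a correlation.

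**Figure D4:**
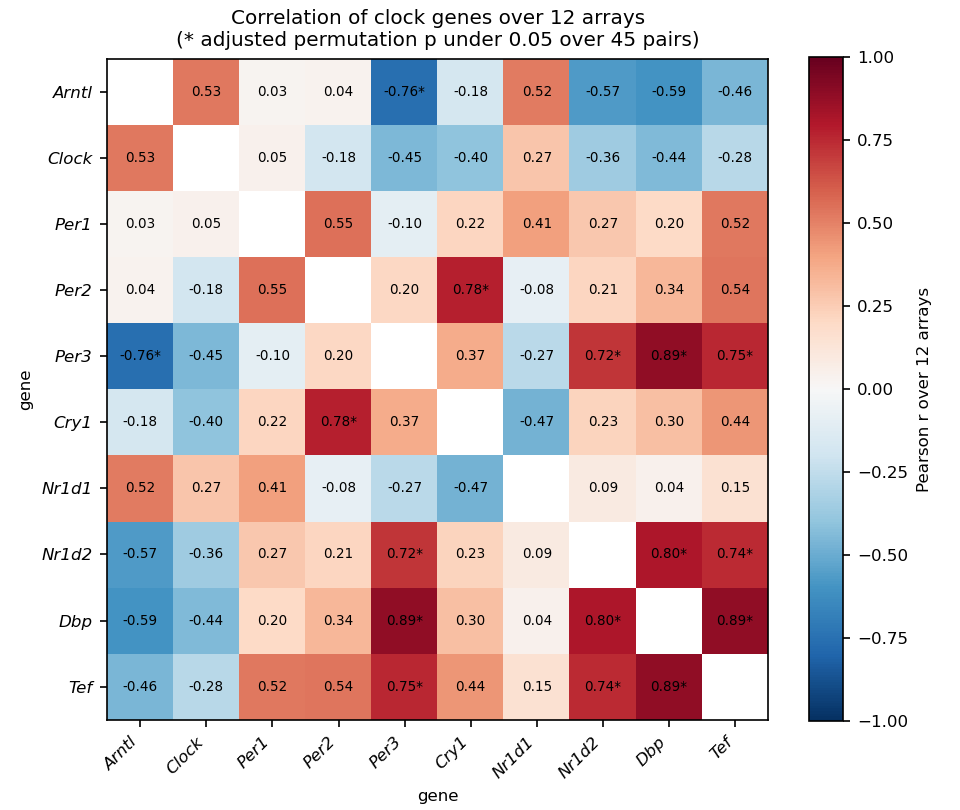
Pearson's r over the 12 arrays for each pair of clock genes (colour and number), with an asterisk where the adjusted permutation p over 45 pairs was under 0.05. The asterisks join Per3, Nr1d2, Dbp and Tef to each other and Per2 to Cry1, and Arntl is negative against Per3 at −0.757.

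The opposition of Arntl and Clock to the other members was partial. Of the 16 pairs of Arntl or Clock with another member, 11 had a negative r and 1 passed, with a median of −0.318. Of the 28 pairs among the other 8 members, 24 had a positive r and 7 passed, with a median of 0.316. Both Arntl and Clock were negative against Dbp, Tef, Per3, Nr1d2 and Cry1, and Clock also against Per2 (r = −0.181). With the output factors r lay between −0.594 and −0.276, and with Cry1 it was −0.401 for Clock and −0.177 for Arntl. Arntl had r = −0.594 with Dbp (rho −0.762, permutation p = 0.0403, adjusted p = 0.202) and r = −0.568 with Nr1d2 (rho −0.769, permutation p = 0.0537, adjusted p = 0.242). By ranks both pairs passed (adjusted permutation p = 0.0342 each). Within the higher array set Arntl passed with Dbp (r = −0.948, adjusted permutation p = 0.016), and with Tef (r = −0.923) and Per3 (r = −0.919, adjusted permutation p = 0.0346 for both). It did not pass with Nr1d2 there (r = −0.84, adjusted permutation p = 0.125). Over all 12 arrays Arntl with Tef had r = −0.459 (adjusted permutation p = 0.345). After quantile normalization r was −0.323 for Arntl with Dbp and −0.059 for Arntl with Nr1d2. Arntl and Clock had r = 0.528 (rho 0.594, permutation p = 0.076, adjusted p = 0.248), and r was 0.228 without F3 replicate 4, the array high in both.

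Nr1d1 and Nr1d2, the 2 REV-ERB genes, had r = 0.087 with each other. Nr1d1 had r = 0.518 with Arntl and 0.044 with Dbp, and 0 of its 9 pairs passed. Per1 had r = 0.553 with Per2 and 0.524 with Tef (adjusted permutation p = 0.248 for both), and 0 of its 9 pairs passed.

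**Figure D5:**
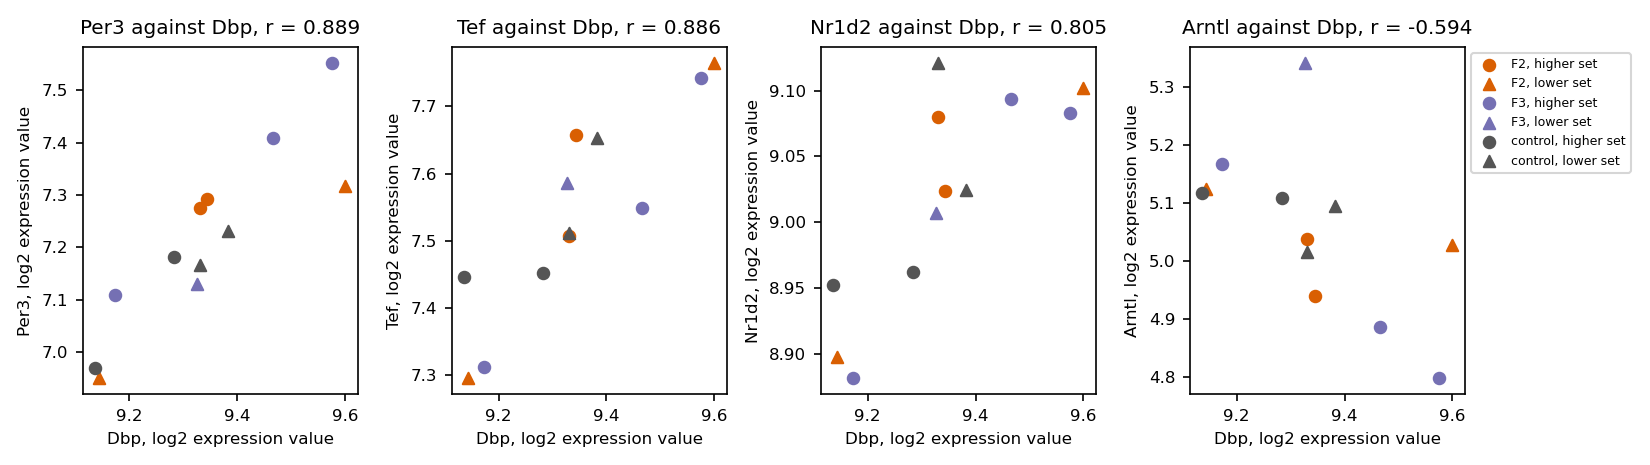
Log2 values of Per3, Tef, Nr1d2 and Arntl (vertical axes) against Dbp (horizontal axis) on the 12 arrays, coloured by group, with circles for the higher and triangles for the lower small RNA array set. Arrays with more Dbp have more of the first 3 genes (r = 0.889, 0.886 and 0.805), and for Arntl (r = −0.594) F3 replicate 4 lies above the other arrays.

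Markers of other cells were set beside the block. The blood list (3 fixed, 1 measured and above the filter, Alas2, a heme synthesis enzyme of red cell precursors also made in small amounts elsewhere) ranged over 8.59 to 9.09 in F2, 8.76 to 9.06 in F3 and 8.01 to 9.06 in control, and had r = 0.733 with Dbp. Kupffer cell markers, of the macrophages of the liver (6 of 6 above the filter), averaged 7.46 to 8.26 in F2, 7.29 to 8.003 in F3 and 7.59 to 7.80 in control, with r = −0.52 against Dbp and 0.306 against Arntl. Stellate cell markers (5 of 5 above the filter) averaged 7.08 to 7.23 in F2, 7.14 to 7.41 in F3 and 7.01 to 7.34 in control, with r = 0.343 against Dbp and −0.511 against Arntl. The hepatocyte list had r = 0.331 with Dbp and 0.068 with Arntl. With Dbp, r was −0.144 for endothelial markers (5 of 5 above the filter), −0.056 for cholangiocyte markers (3 of 5) and −0.278 for lymphocyte markers (3 of 6). These are descriptions over the same 12 arrays, and their part in the correlations was not tested. In whole tissue, fewer cells of a type and less RNA per cell cannot be told apart.

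Beyond the 10 genes, other components of the clock were read from a list of 20, of which 17 were measured and 16 passed the filter. None passed the test in any comparison. Relative to control, 9 were nominally higher and 7 lower in F2 (median 0.01, all genes −0.01) and 5 higher and 11 lower in F3 (median −0.02, all genes −0.01), and F3 minus F2 gave 2 higher and 14 lower (median −0.04, all genes 0.0025). An unadjusted p under 0.05 was reached by 1 of the 16, lower in F3 than in control, where 1.28% of all genes were.

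That gene was Csnk1d, which encodes casein kinase 1 delta, a kinase that phosphorylates PER proteins and sets the pace of the clock. Csnk1d had 8.04, 8.0001, 8.07 and 8.02 in F2, 7.95, 7.89, 7.94 and 7.97 in F3, and 8.10, 8.05, 8.07 and 8.06 in control. All 4 F3 arrays lay below all F2 and all control arrays. Of all genes tested, 1.63% had F3 and control arrays that did not overlap, in either direction, and 2.46% had F3 and F2 arrays that did not. Csnk1d was singled out after its values were seen. The difference was −0.13 for F3 minus control (SE 0.047, limma adjusted p = 0.9998) and −0.10 for F3 minus F2 (SE 0.047, limma adjusted p = 0.9999). Its relative Csnk1e differed by −0.0026 for F3 minus control (SE 0.059).

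Several partners of the positive and negative limbs were measured too. Cry2, the second cryptochrome, averaged 7.41 ± 0.17 in F2, 7.44 ± 0.12 in F3 and 7.41 ± 0.16 in control, and had r = 0.661 with Dbp. Bhlhe40, which encodes the E-box repressor DEC1, ranged more widely, with 9.22, 9.22, 9.34 and 9.40 in F2, 8.80, 8.76, 9.59 and 9.45 in F3, and 8.81, 9.71, 9.29 and 9.64 in control. It went with Arntl over the arrays (r = 0.707) and had r = −0.571 with Dbp. Bhlhe41, encoding the related DEC2, had r = 0.014 with Arntl.

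Npas2, a CLOCK paralogue, lay near background at 5.21 ± 0.14 in F2, 5.19 ± 0.09 in F3 and 5.29 ± 0.14 in control. Rora, encoding an activator at the ROR element, differed from control by −0.01 in F2 and 0.0044 in F3 (SE 0.11). Nfil3, encoding a repressor at the D-box, differed by −0.0018 in F2 and −0.02 in F3 (SE 0.11). Hlf, a relative of Dbp and Tef, had r = 0.186 with Dbp and differed by 0.07 in F2 and −0.02 in F3 (SE 0.11). The rest of the list, Btrc, Fbxw11, Timeless, Nono, Wdr5, Prkaa1 and Gsk3b, overlapped between all groups.

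Liver clock outputs, a list of 28 genes of which 25 passed the filter, had 0 genes with an unadjusted p under 0.05 in any comparison. Over all genes the shares were 0.919% for F2 minus control, 2.93% for F3 minus control and 2.37% for F3 minus F2. With 25 genes, a count of 0 is close to those shares. Against control, 14 were higher and 11 lower in F2 (median 0.01) and 8 higher and 17 lower in F3 (median −0.02), and F3 minus F2 gave 10 higher and 15 lower (median −0.04). As a list they went both ways against the limb difference: over the 25 genes the median r was −0.093 (all genes −0.007), 9 were positive and 1 was at −0.7 or lower. Values of opposite sign cancel in such a median, so it does not show how closely single genes followed the limb difference. With Dbp the median r was 0.156 (all genes −0.029). The 4 of largest absolute r with the limb difference, which are extremes of that list, were Upp2, Rgs16, Coq10b and Clpx.

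Upp2, a uridine phosphorylase, had r = −0.88 with the limb difference and 0.749 with Dbp. It had 8.17, 7.70, 8.24 and 7.93 in F2, 8.23, 8.15, 7.73 and 7.61 in F3, and 8.28, 7.25, 8.16 and 8.06 in control. Control replicate 2, among the lowest arrays for Dbp, Tef and Per3, was the lowest here. Rgs16, a regulator of G protein signalling that cycles in liver and responds to fasting, had the widest range of the 4, with 10.99, 8.51, 11.18 and 9.77 in F2, 10.87, 10.44, 10.07 and 7.43 in F3, and 10.23, 10.21, 9.84 and 9.39 in control. F3 replicate 4, the highest array for Arntl, was the lowest for Rgs16, and r with Arntl was −0.788. The r with the limb difference was −0.687 for Coq10b and 0.644 for Clpx.

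Genes that respond to body temperature (10 fixed, 9 above the filter) and to glucocorticoids (12 fixed, 12 above the filter), both of which act on the liver clock, were followed as further inputs. Neither list had a gene past the adjusted threshold. Of the temperature list, 8 of 9 were lower in F3 than in control (median −0.27, all genes −0.01) and 4 were higher and 5 lower in F2 (median −0.05). The list mixes chaperone genes with the cold-inducible Cirbp and Rbm3, so a shared direction has no single meaning for temperature. For F3 minus control Cirbp differed by −0.0092 and Rbm3 by 0.0447 (SE 0.12 each), and the chaperone gene Hsph1 by −0.58 (SE 0.48). An unadjusted p under 0.05 with a lower F3 value was reached against control by 2 of the 9, where 1.28% of all genes did so, and against F2 by 1 of the 9, Dnajb1, where 0.774% did so. Hspa1a, encoding an inducible heat shock protein, differed by −1.32 (SE 0.54, limma adjusted p = 0.9998) and Dnajb1, its co-chaperone, by −0.47 (SE 0.16, limma adjusted p = 0.9998) for F3 minus control. Hspa1a had 8.38, 6.19, 8.96 and 7.90 in F2, 5.82, 6.35, 7.51 and 7.34 in F3, and 8.85, 7.79, 7.93 and 7.73 in control, so all F3 arrays lay below all control arrays while F2 spanned both. F3 and control arrays did not overlap, in either direction, for 1.63% of all genes tested. With the limb difference the 4 genes of largest absolute r were Hsph1 at −0.284, Dnajb1 at −0.273, Hspa1a at −0.251 and Hspa8 at −0.15.

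Of the glucocorticoid list, 8 were higher and 4 lower in F2 than in control (median 0.27, all genes −0.01), 5 higher and 7 lower in F3 (median −0.09), and 2 higher and 10 lower for F3 minus F2 (median −0.18). An unadjusted p under 0.05 was reached by 1 of the 12, higher in F2 than in control, against 0.342% of all genes. It was Pck1, the gluconeogenic enzyme PEPCK, named here after its values were seen, with 11.84 ± 0.15 in F2 and 11.56 ± 0.22 in control (SD, n = 4 each). Over the 12 genes the median r was −0.088 with the limb difference (all genes −0.007) and −0.021 with Dbp (all genes −0.029), 6 of 12 being above 0 with each, so the genes named next are extremes of a list that went both ways. Zbtb16, a zinc finger factor strongly induced by glucocorticoids, had r = −0.69 with the limb difference and 0.717 with Dbp. It had 8.29, 6.95, 8.90 and 6.95 in F2, 7.88, 8.14, 6.95 and 7.35 in F3, and 8.25, 7.33, 7.38 and 6.86 in control. F2 replicates 1 and 3, the high Per2 arrays of that group, were also its high Zbtb16 arrays. Sgk1, a kinase, had r = 0.661 with the limb difference and 0.723 with Arntl, Cdkn1a, a cell cycle inhibitor, r = 0.555 with the limb difference, and Lcn2, an acute phase protein, r = 0.416. Lcn2 had 10.33 in F2 replicate 2, 10.21 in F3 replicate 4 and 8.83 in control replicate 1, and at most 7.48 on any other array. Those arrays all belong to the lower array set, as do F2 replicate 3 and control replicate 3, where Lcn2 was 6.42 and 6.67. The limb difference of the arrays with high Lcn2 was 0.26, 0.31 and −0.17, in the order given. Whether an acute phase state bears on the clock values was not tested.

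Likeness to Arntl and Dbp was ranked over all genes tested, and predicted genes, RIKEN names and small RNA names were passed over in naming genes. The 5 genes so named that followed Arntl most closely were Slco2a1 (r = 0.934), Ihh (r = 0.904), Slc30a1 (r = 0.894), Ano10 (r = 0.893) and Sik1 (r = 0.893). The 5 so named that ran most against it were Chn2 (r = −0.934), Pdgfd (r = −0.897), Hykk (r = −0.868), Ifit1 (r = −0.867) and Otc (r = −0.863). Over all genes the last of these, Hykk, Ifit1 and Otc, held places 5, 6 and 7. For Dbp the highest so named were Dpyd (r = 0.926), Dhtkd1 (r = 0.924), Dsg1c (r = 0.900), Dsg1a (r = 0.900) and Polg2 (r = 0.895), and the lowest Traf7 (r = −0.946), Hip1r (r = −0.934), Nup93 (r = −0.883), Arfgap2 (r = −0.859) and Tpm1 (r = −0.851). Over all genes Dhtkd1, Dsg1c, Dsg1a and Polg2 held places 3, 4, 5 and 6. These values are at or near the extremes of 18724 correlations over 12 arrays, which share the same hybridizations and array sets, and carry no test. Dsg1c and Dsg1a are close relatives whose probes may share signal.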

How the data were processed

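Liver RNA was measured on 12 Affymetrix arrays, 4 per group. The authors deposited log2 expression values, for which the submitters' processing notes name Affymetrix Expression Console. For its version, background correction, normalization and summarization, no setting is given in the sources used here. That the scale is log2 follows from the range, 0.73 to 13.64. Of 72688 probe sets, 30604 had 1 gene symbol, 2146 several and 39938 were unnamed here. The brightest probe set stood for each of 355 genes that had more than 1, and 18725 genes with a mean above 4.55, the median of all probe sets, were tested.

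One model over all arrays, with no covariate, was fitted in R 4.3.3 by lmFit and eBayes of limma 3.58.1, with Benjamini-Hochberg adjustment and a threshold of 0.05. Single genes were also compared by exact permutation tests, and pairs by permutation of Pearson's r with scipy 1.17.1 under Python 3.11.15. The number of arrays limits the precision. Groups were taken from the sample titles. Members, lists and tests were chosen with earlier results of these data known. All 10 members were named, every other clock component above the filter, the 4 genes of each further list with the largest absolute r with the limb difference, and the 5 highest and 5 lowest genes for Arntl and Dbp. For these last, predicted genes, RIKEN names and small RNA names were passed over.

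Alternatives were centring on array medians, quantile normalization, a filter left out or made stricter (mean above 5.92), the mean of a gene's probe sets, eBayes with trend and robust, array weights, fits of 2 groups alone, an adjusted p under 0.10, the replicate number or array set as a block, each array left out, Spearman's rho, and group or set means removed. Values within an array set and the replicate block for pairs were added after seeing the data. Same-numbered arrays did not deviate together (r between −0.506 and 0.322 over 12 pairs), so the numbers were not taken as pairs.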

Additional observations from a re-analysis of the deposited data

Results flagged for a closer look

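Per3 in F2 replicate 2 was 6.95, while the other 3 F2 arrays lay between 7.28 and 7.32. Its gap to the nearest array was 0.885 of the group's range, above Dixon's critical value for 4 samples. In all, 33 groups of 4 values were looked at, and chance marks about 1 in 20. The same array was among the 3 lowest for Dbp, Tef and Cry1 and the lowest for Per2.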

How the results depend on the processing

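No gene passed in any of the 3 comparisons under any alternative run for that count, and the limb difference between groups moved by more than the spread of the arrays only for F3 minus control within the array sets, at −0.22 in the higher set and 0.55 in the lower set, where F3 had 1 array. The 10 members by 3 comparisons gave 30 differences, of which 11 kept their sign under every alternative fit and 19 changed sign when 1 array was left out. Some fits could not turn a sign: a changed filter, eBayes with trend and robust, the mean over probe sets and the replicate block. Within the higher array set alone 8 of the 30 changed sign, and within the lower set 18. The largest of those 19 was 0.074 in size, so their direction is not settled. Leaving out 1 array gave, for F2 minus control, −0.1517 to 0.0453 (Cry1), −0.0102 to 0.142 (Dbp), −0.1033 to 0.1565 (Nr1d1), −0.0144 to 0.0537 (Nr1d2), −0.0924 to 0.1712 (Per1), −0.2095 to 0.0921 (Per2) and −0.0292 to 0.1275 (Tef). For F3 minus control it gave −0.1337 to 0.0479 (Arntl), −0.0727 to 0.0921 (Cry1), −0.0243 to 0.0464 (Nr1d2), −0.1713 to 0.0448 (Per2) and −0.0334 to 0.1101 (Tef). For F3 minus F2 it gave −0.082 to 0.0997 (Arntl), −0.114 to 0.0898 (Clock), −0.0107 to 0.1737 (Cry1), −0.0402 to 0.1119 (Dbp), −0.0522 to 0.0355 (Nr1d2), −0.1661 to 0.1354 (Per2) and −0.0958 to 0.0696 (Tef). Quantile normalization turned Nr1d1 in F2 minus control (0.0127), Nr1d2 in F3 minus control (−0.063), and Arntl (−0.0068), Clock (−0.0119) and Dbp (−0.0387) in F3 minus F2. Centring on array medians turned Nr1d1 in F2 minus control (0.0151), Nr1d2 in F3 minus control (−0.0011), and Arntl (−0.0033) and Clock (−0.0009) in F3 minus F2. Array weights turned Per2 (0.0564), Cry1 (0.048) and Nr1d1 (0.0618) in F2 minus control, and Clock (−0.024), Cry1 (−0.0189) and Dbp (−0.0218) in F3 minus F2. The array set as a block turned Per2 (0.0179) and Tef (0.0021) in F3 minus F2. With their sign kept, array weights also moved Per1 to 0.3667 in F2 minus control and −0.1018 in F3 minus control. The cause was not tested for any of these.

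The count of member pairs that passed, 8 in all, was 5 after quantile normalization, 3 with group means removed, 4 within the higher array set (2 of them shared with the 8) and 0 without the 2 farthest arrays, where fewer arrays entered. With 1 array left out it was 2 to 8: 2 without F2 replicate 1, F2 replicate 2, F3 replicate 3 or control replicate 4, 3 without F2 replicate 4 or F3 replicate 1, and 4 without F2 replicate 3. By Spearman's rho 7 passed, 5 of them shared with the 8. Every group holds each replicate number, so the replicate block could not change a group difference. It gave 0 genes past the threshold and left 1 pair. No array correlated best with one of its own number (0 of 12). Signal over background limits Arntl most, and 12 arrays limit every correlation.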
